A study of Mus musculus with 6 samples.

Results

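The 48 genes described here serve ribosome biogenesis: they act in RNA polymerase I transcription and in the processing, modification and assembly of ribosomal RNA (rRNA). They were taken from a list of gene symbols for these functions, and all 48 were among the 24191 genes of the deposited table. PolyA RNA was compared between 3 wild-type (WT) libraries and 3 libraries of Mettl5 -/- cells, all of the mouse embryonic stem cell strain J1 grown in serum and LIF for 7 days, with no other treatment named. Mettl5 encodes the methyltransferase that places N6-methyladenosine on small subunit rRNA. The labels do not say whether the knockout was one clone, which part of the gene was altered, or whether replicates were separate cultures, so p-values measure only the spread between these libraries, which may be technical.

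In the nucleolus, RNA polymerase I transcribes a long precursor that holds the rRNAs of both subunits. Small nucleolar RNAs (snoRNAs) in protein particles guide its methylation (box C/D) and pseudouridylation (box H/ACA), while the small subunit processome and the large subunit assembly factors fold and cut it. These genes are known for high activity in fast-dividing cells such as embryonic stem cells. The assay measured mRNAs of the machinery, not rRNA, and RNA per cell was not measured, so fewer cells expressing a gene and less RNA per cell cannot be told apart.

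Levels are on the deposited TPM scale, which corrects for transcript length, and the scaled reads deposited beside them were used for the test. Estimated depth was 38550000 to 59640000 fragments per library. Mettl5 mRNA fell from TPM-scale levels of 50.3, 48.6 and 48.7 in WT to 3.65, 3.58 and 3.32 in the knockout. All 10 pluripotent stem cell markers listed for the check (such as Pou5f1, Sox2 and Nanog) averaged at least 1 TPM-scale unit in both genotypes. Their summed level was 5014 to 5410 (WT) and 4742 to 5194 (knockout), with 3 of 10 higher and 6 lower in the knockout, and much of that sum is Dppa5a and Pou5f1. Zfp42 was at 40.7%, Esrrb at 52.6% and Sox2 at 64.3% of their WT level, and Klf4 went from 33.2 to 15.3. The 3 higher ones were Lin28a (143% of its WT level), Sall4 (131%) and Dppa5a (117%), and Nanog did not pass (99.1%). Of 10 fibroblast markers, 9 were higher and 1 lower, and their summed level was 14.6 to 17.2 (WT) and 35.6 to 36.9 (knockout). Without Thy1, the marker that fell, the other 9 summed to between 2.47 and 3.03 in WT and between 29.9 and 30.7 in the knockout, with Col1a1 going from 0.694 to 17.7. In WT 6 of the 10 averaged under 0.1. The part of these stem cell and fibroblast marker changes in the results below was not tested.

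The mRNAs of the machinery differed little between genotypes, and in both directions. With the libraries scaled as deposited, 25 of the 48 genes rose in knockout libraries, 12 fell and 11 did not pass (limma on all genes, with a Benjamini-Hochberg adjusted p under 0.05). Over all 24183 tested genes, 33.6% were higher and 28.9% lower. All 48 averaged at least 1059 scaled reads, and among the 6876 genes with at least 1000, 51.6% were higher and 31.6% lower, against 52.1% and 25.0% of the 48 genes. The shares of 51.6% and 31.6%, here and below, are from a fit of those 6876 genes alone. In the fit of all genes they were 50.9% and 30.9%. Shares of such genes by chromosome, with equal totals or centred are from fits of all genes. The share of calls among the 48 genes was therefore close to that of other well expressed genes. The largest rise was 1.46-fold (Wdr12) and the largest fall 1.36-fold (Utp18), and no gene of the 48 passed a test for a change beyond 1.5-fold. Of all genes 11.9% passed it upward and 9.01% downward, and of those with at least 1000 scaled reads 11.6% and 4.8%. On the TPM scale the groups did not overlap for 39 of the 48 genes (81.2%), against 68.1% of all tested genes and 83.7% of those with at least 1000 scaled reads.

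Changes of this size depend on how libraries are scaled and on the chromosome. The deposited scaled reads summed to more in the knockout than in WT, and rescaling to equal totals moved the median log2 fold change of all genes by -0.153. With equal totals 12 of the 48 genes were higher (25.0%) and 22 lower (45.8%). Of all genes 26.1% were higher and 37.8% lower, and of those with at least 1000 scaled reads 36.5% and 44.8%. The median of the 48 genes went from 0.0904 to -0.0661, that of all genes from 0.00382 to -0.149, and that of genes with at least 1000 scaled reads from 0.111 to -0.0455. All 12 genes higher with equal totals were also higher as deposited, and all 12 lower as deposited stayed lower. Another 13 were higher only as deposited, 10 were lower only with equal totals, and Heatr1 passed neither way.

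**Figure D1:**
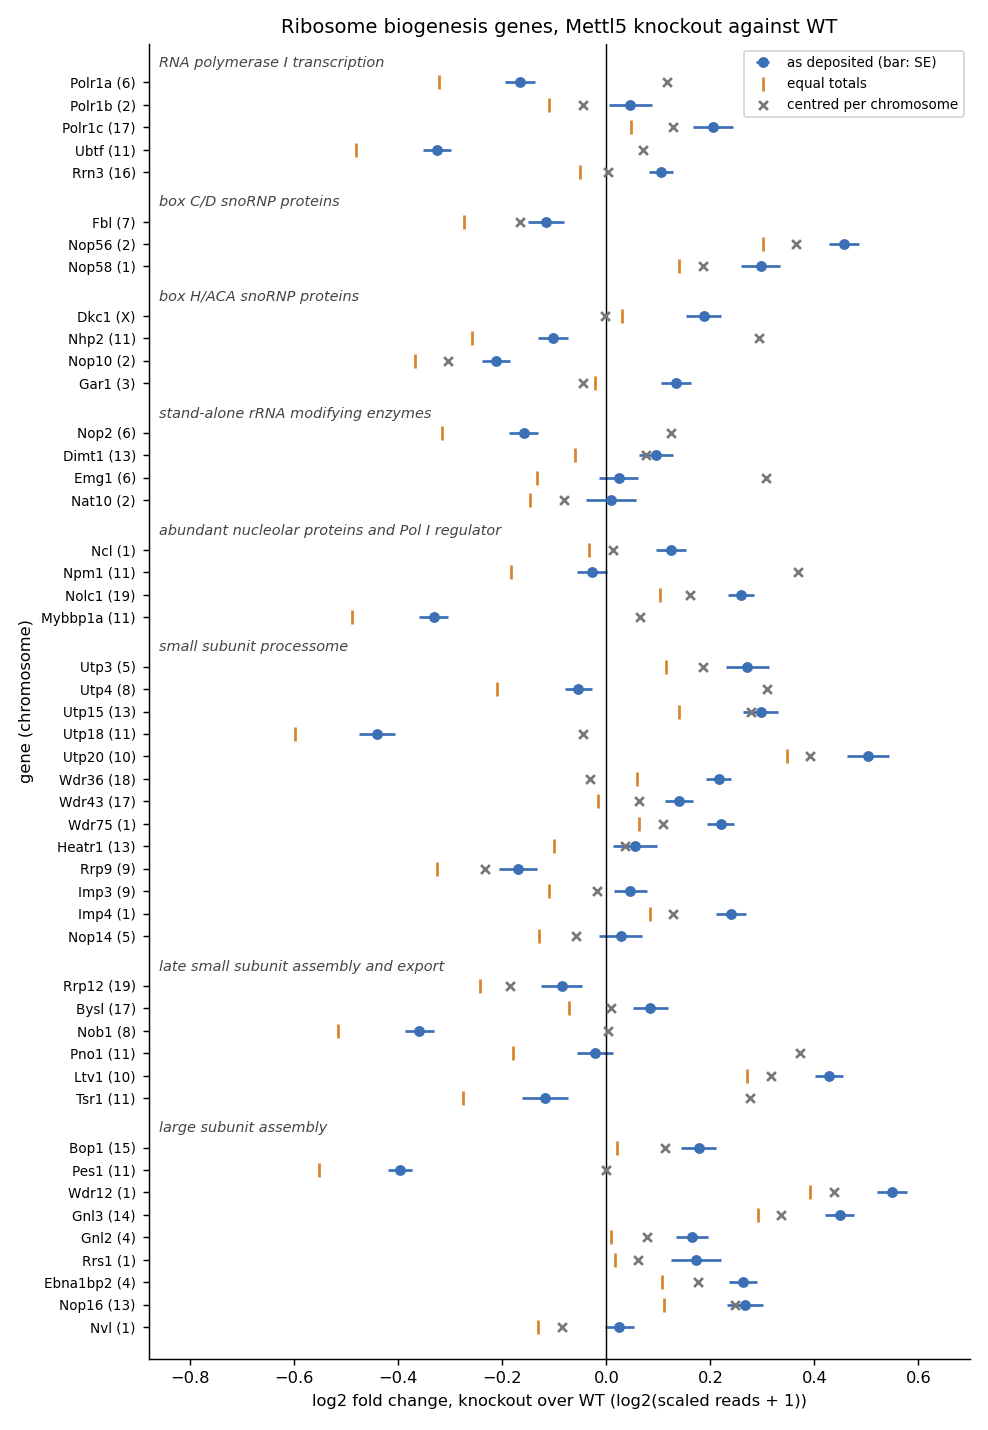
Log2 fold change (knockout over WT, log2(scaled reads + 1)) of the 48 genes by role, with each gene's chromosome in brackets. Circles are the values as deposited with their SE, bars those with equal totals and crosses those centred on the median of the gene's own chromosome. Wdr12 (0.55) and Utp18 (-0.44) mark the extremes as deposited.

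The direction followed the chromosome. Of 13 genes on chromosomes 6, 8 and 11, none was higher and 9 were lower as deposited, and all 13 were lower with equal totals. Of the 35 genes elsewhere, 25 were higher and 3 lower as deposited, and 12 and 9 with equal totals. These 3 chromosomes are grouped by their low medians in these same data, so a split over all genes follows from the grouping and is no separate support. Over all genes as deposited, 16.1% were higher and 53.3% lower on chromosomes 6, 8 and 11, and 37.3% and 23.8% elsewhere. With equal totals, 12.5% of all genes were higher and 61.9% lower on the 3 chromosomes, and 28.9% and 32.8% elsewhere. Among genes with at least 1000 scaled reads as deposited, 16.8% were higher and 69.9% lower on the 3 chromosomes, and 59.0% and 21.8% elsewhere. Median log2 fold changes of genes with at least 1000 scaled reads were -0.29, -0.35 and -0.29 on chromosomes 6, 8 and 11, and 0.15 to 0.25 on the others. The cause of the shift of these chromosomes was not tested.

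When log2 values were centred on the median of each chromosome, a setting in which the scaling of libraries cancels, 23 of the 48 genes were higher and 5 lower (31.7% and 29.1% of all genes, and 47.6% and 30.5% of those with at least 1000 scaled reads). Of the genes lower as deposited, 4 were then higher (Polr1a, Nhp2, Nop2 and Tsr1), all of them on chromosome 6 or 11. The calls that held under all 3 settings were 12 of 48 higher and 3 of 48 lower, against 25.8% and 25.1% of all genes. The share under all 3 settings among genes with at least 1000 scaled reads, a closer comparison, was not computed. The 12 higher genes were Nop56, Nop58, Nolc1, Utp3, Utp15, Utp20, Imp4, Ltv1, Wdr12, Gnl3, Ebna1bp2 and Nop16, and the 3 lower genes were Fbl, Nop10 and Rrp9.

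**Figure D2:**
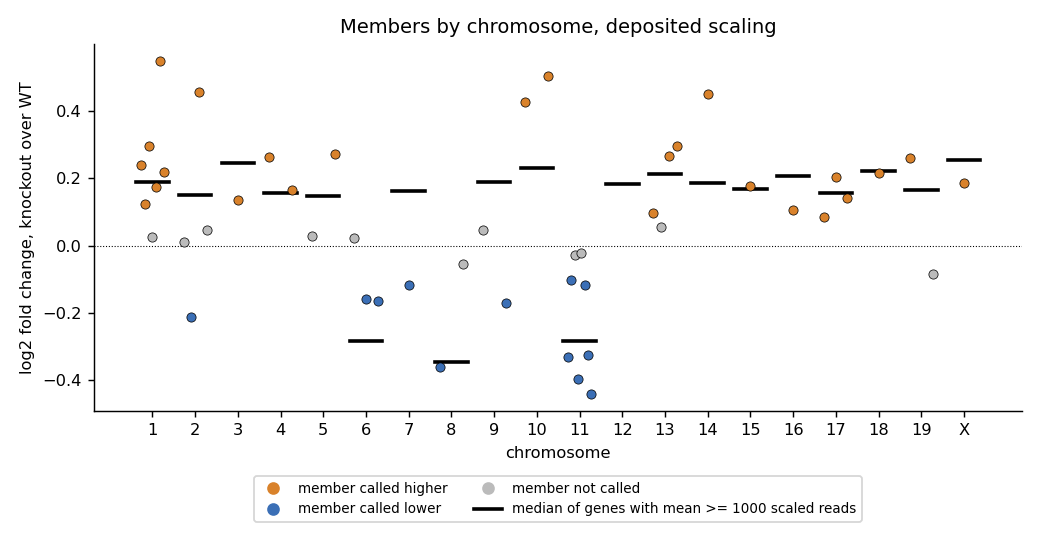
Log2 fold change (knockout over WT, as deposited) of the 48 genes by chromosome, with the median of all genes averaging at least 1000 scaled reads drawn as a black line. Every gene called higher (orange) lies outside chromosomes 6, 8 and 11, where the medians are -0.29, -0.35 and -0.29.

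Many genes of this machinery are known targets of MYC, which binds the E-box hexamer CACGTG, and the promoters were searched for it. RefSeq promoters on GRCm38.p6, from 250 bases before to 50 after the start site, were found for 41 of the 48 genes. The hexamer, which reads the same on both strands, was in 12 of the 41 (29.3%) and in 8.09% of the 27025 genes with such a promoter. As deposited, 5 of the 12 genes were higher, 5 lower and 2 not called. Over all genes 33.6% were higher and 28.9% lower, and among those with at least 1000 scaled reads 51.6% and 31.6%. All 5 lower ones lie on chromosomes 6 and 11 and all 5 higher ones elsewhere. Of genes with at least 1000 scaled reads, 69.9% were lower on chromosomes 6, 8 and 11, and 59.0% higher elsewhere. With equal totals 3 were higher and 7 lower (36.5% and 44.8% of genes with at least 1000 scaled reads). Centred per chromosome, 7 were higher and none lower (47.6% and 30.5% of such genes). In 8 genes it lay after the start site (Utp4, Ltv1, Utp20, Pes1, Pno1, Mybbp1a, Tsr1 and Wdr43), and in 4 before it. The 4 upstream matches are shown because they lie before genes of both directions as deposited: Imp4 and Rrn3 were higher and Nop2 and Utp18 lower. Only Imp4 kept its call under all 3 settings. Rrn3 did not pass with equal totals (-0.05) or centred (0.00233). When centred, Nop2 was higher (0.12) and Utp18 did not pass (-0.05). Each is 100 bases on the gene's strand, with the hexamer in capitals.
Imp4 (chr1:34439668-34439767, plus strand): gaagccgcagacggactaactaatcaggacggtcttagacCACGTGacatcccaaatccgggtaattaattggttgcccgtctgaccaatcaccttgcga
Rrn3 (chr16:13780599-13780698, plus strand): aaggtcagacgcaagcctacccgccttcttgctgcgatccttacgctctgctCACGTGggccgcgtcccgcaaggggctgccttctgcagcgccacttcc
Nop2 (chr6:125131783-125131882, plus strand): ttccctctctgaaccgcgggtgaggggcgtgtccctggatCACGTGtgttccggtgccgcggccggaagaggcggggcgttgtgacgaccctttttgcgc
Utp18 (chr11:93885767-93885866, minus strand): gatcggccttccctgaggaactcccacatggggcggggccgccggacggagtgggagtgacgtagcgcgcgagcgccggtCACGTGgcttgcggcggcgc
The hexamer began 121, 48, 60 and 20 bases before the start sites of Imp4, Rrn3, Nop2 and Utp18, and Rrn3 held another at 215. Myc itself had a log2 fold change of 0.34 (SE 0.0359, limma adjusted p 2.35e-05), from 37.1 ± 1.21 to 45.3 ± 1.40 on the TPM scale (SD, n = 3). Mycn had one of 0.28 (SE 0.0309, limma adjusted p 3.29e-05), from 58.0 ± 1.82 to 68.1 ± 1.27, and both also passed with equal totals, at 0.19 and 0.13.

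The genes of RNA polymerase I transcription went both ways, with 2 of 5 higher and 2 lower as deposited, none higher and 3 lower with equal totals. Among genes with at least 1000 scaled reads, 51.6% were higher and 31.6% lower as deposited, and 36.5% and 44.8% with equal totals. Polr1a, the largest catalytic subunit (mm10 chromosome 6, 71909053 to 71984935), had TPM-scale levels of 50.1, 49.3 and 50.1 in WT libraries and 42.4, 42.5 and 42.7 in knockout libraries. Ubtf, the factor that opens and marks active rRNA genes (chromosome 11, 102304560 to 102319742), was at 67.7, 70.8 and 67.7 in WT and 52.3, 53.4 and 53.3 in the knockout. In both genes every knockout library lay below every WT library. Here and in the roles below, genes given library by library were chosen by smallest p. Separate groups in them are partly set by that choice. Log2 fold changes were -0.17 for Polr1a (SE 0.0284, limma adjusted p 0.000666) and -0.33 for Ubtf (SE 0.0274, adjusted p 5.51e-06). Centred on their chromosomes, Polr1a was higher (0.12) and Ubtf did not pass (0.07).

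The other catalytic subunit, Polr1b, had a log2 fold change of 0.05 and did not pass as deposited (adjusted p 0.357), while it was lower with equal totals (-0.11). Polr1c, a subunit shared with RNA polymerase III, was higher as deposited (0.20), did not pass with equal totals (0.05) and was higher when centred (0.13). Rrn3, which recruits the polymerase to the promoter, averaged 62.8 ± 0.467 in WT libraries and 65.2 ± 0.491 in those of the knockout on the TPM scale (SD, n = 3). Its log2 fold change of 0.11 passed as deposited, but neither with equal totals (-0.05) nor centred (0.00233).

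Among the box C/D proteins, both scaffold genes rose and the methyltransferase gene fell, under all 3 settings. Nop56 (chromosome 2, 130274430 to 130279313) had TPM-scale levels of 341, 333 and 350 in WT libraries and 439, 448 and 452 in knockout libraries. Nop58, its paralogue in the particle (chromosome 1, 59684971 to 59719044), was at 464.5, 507 and 481 in WT and 555, 582 and 551 in the knockout. The groups were separate for both genes, with all knockout libraries above all WT libraries. Log2 fold changes were 0.46 for Nop56 (SE 0.0287, limma adjusted p 7.36e-07) and 0.30 for Nop58 (SE 0.0371, adjusted p 8.33e-05). Fbl, which encodes the methyltransferase fibrillarin, went from 338 ± 9.72 to 296 ± 13.6 (SD, n = 3), a log2 fold change of -0.12 (adjusted p 0.0152) that was -0.27 with equal totals and -0.17 centred. Its call as deposited was lost without knockout replicate 2 (adjusted p 0.0591) or 3 (0.0566).

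Some of these genes carry snoRNAs in their introns, so that one transcript can yield the mRNA of a particle protein and a guide RNA. GENCODE M21 places 21 snoRNAs on the same strand inside 7 of the 48 genes (Nop56, Nop58, Dkc1, Ncl, Wdr43, Tsr1 and Gnl3), and 12 of them, in 6 genes, were in the table. None of the 12 was higher, 2 were lower and 10 did not pass, with a median log2 fold change of -0.22. Apart from Snord53, those that did not pass averaged only 4.55 to 22.1 scaled reads in WT, so moderate changes in them could be missed. With equal totals 4 were lower, the added ones being Snord70 in Nop58 and Gm22858 in Wdr43 (-0.81, limma adjusted p 0.0399). Over all 196 snoRNAs tested, 44.9% were lower as deposited and the median was -0.66. Their share with equal totals was not computed. Both lower snoRNAs lay in genes whose mRNA rose, but so did most of the 12, since all 6 host genes except Tsr1 were higher as deposited. The sequences of these 2 snoRNAs, read from GENCODE, are shown because they were called lower. In Gm24451, as M21 names it, capitals mark an ACA 3 bases before the end, the position of the ACA box of box H/ACA snoRNAs. In Snord11 they mark the first TGATGA and the last CTGA, the letters of the C and D boxes.
Gm24451 (in Nop56, chr2:130276237-130276369, plus strand): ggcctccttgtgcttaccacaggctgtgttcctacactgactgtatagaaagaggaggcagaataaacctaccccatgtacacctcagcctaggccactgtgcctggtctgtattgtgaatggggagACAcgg
Snord11 (in Nop58, chr1:59704790-59704873, plus strand): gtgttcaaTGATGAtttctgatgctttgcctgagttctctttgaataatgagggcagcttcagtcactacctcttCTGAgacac
Gm24451 had TPM-scale levels of 141, 141 and 159 in WT libraries and 25.8, 20.8 and 28.5 in knockout libraries, so the groups were far apart while Nop56 mRNA moved the other way. Its log2 fold change was -2.43 (limma adjusted p 1.15e-06). Snord11 lay between 13.6 and 16.3 in WT libraries and was at 6.66, 8.59 and 7.80 in the knockout, at an average of only 11.1 and 5.48 scaled reads. Its log2 fold change of -0.90 (adjusted p 0.0209) was lost without WT replicate 2 (adjusted p 0.0611), WT replicate 3 (0.0622) or knockout replicate 3 (0.0509). Snord70, also in Nop58, did not pass as deposited (-0.43, adjusted p 0.12) and was lower with equal totals (-0.58). Snord53 in Wdr43, with an average of 92.4 ± 6.40 in WT libraries and 111 ± 7.32 in those of the knockout (SD, n = 3), did not pass by scaled reads (0.16, limma adjusted p 0.287) but was higher in the test of the TPM column (0.26, adjusted p 0.0116). SnoRNAs have no polyA tail, and the part of RNA selection in these values was not tested.

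**Figure D3:**
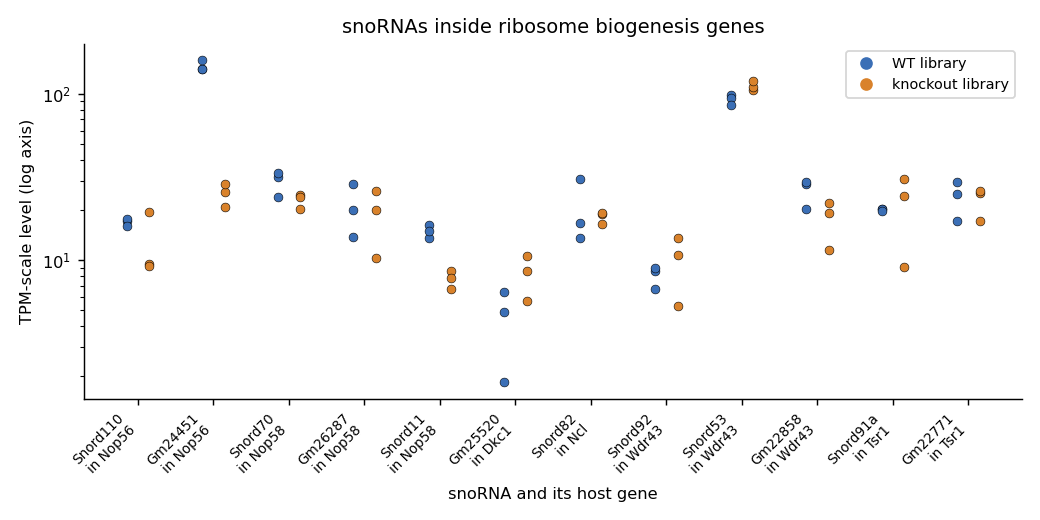
TPM-scale level (log axis) of the 12 snoRNAs inside the 48 genes in each WT (blue) and knockout (orange) library. Gm24451 in Nop56 falls from between 141 and 159 to between 20.8 and 28.5, and most other snoRNAs overlap between the genotypes.

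Of the box H/ACA proteins, 2 of 4 were higher and 2 lower as deposited, and none was higher and 2 lower with equal totals. The shares of genes with at least 1000 scaled reads were 51.6% and 31.6% as deposited, and 36.5% and 44.8% with equal totals. Dkc1, the pseudouridine synthase dyskerin (chromosome X, 75095854 to 75109777), had TPM-scale levels of 209, 220.0 and 219.8 in WT libraries and 227, 239 and 234 in knockout libraries. Nop10, its smallest partner (chromosome 2, 112261926 to 112263269), was at 240.5, 237.5 and 243 in WT and 194, 201 and 202 in the knockout. Nop10 was lower in every knockout library than in any WT library and was lower under all 3 settings, with a log2 fold change of -0.21 (SE 0.0264, limma adjusted p 8.32e-05). Dkc1 had one of 0.19 (SE 0.0345, adjusted p 0.0011) that did not pass with equal totals (0.03) or centred (-0.00197). Nhp2, on chromosome 11, was lower as deposited (-0.10) and higher when centred (0.29). Its call as deposited was lost without knockout replicate 3 (adjusted p 0.0526). Gar1, the remaining core protein, was higher as deposited (0.13) and did not pass with equal totals (-0.02).

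The 4 genes of the list for enzymes that modify rRNA without a guide RNA, as METTL5 does, moved by 0.16 or less on the log2 scale as deposited. Nop2, the large subunit cytosine methyltransferase (chromosome 6, 125131909 to 125144753), had TPM-scale levels of 121, 116 and 114.5 in WT libraries and 102.5, 99.6 and 100.1 in knockout libraries. Dimt1, which dimethylates adenosines of the small subunit rRNA (chromosome 13, 106947127 to 106960224), was at 46.7, 49.4 and 48.8 in WT and 50.35, 48.6 and 49.9 in the knockout. Nop2 separated the genotypes, while Dimt1 overlapped between them. Nop2 had a log2 fold change of -0.16 (SE 0.0281, limma adjusted p 0.000837), and became 0.12 when centred. Dimt1 had one of 0.10 (SE 0.0326, adjusted p 0.0281), which did not pass with equal totals (-0.06) or centred (0.08). The Dimt1 call was also lost without WT replicate 1 (adjusted p 0.0968), knockout replicate 1 (0.0833) or knockout replicate 3 (0.0846). Emg1, a small subunit pseudouridine methyltransferase, and Nat10, the rRNA cytidine acetyltransferase, did not pass as deposited (0.02 and 0.01). With equal totals both were lower (-0.13 and -0.15), and centred on chromosome 6 Emg1 was higher (0.31).

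The genes with the highest levels of the 48 were Npm1 and Ncl, both for abundant nucleolar proteins. Npm1, the histone chaperone nucleophosmin, averaged 4828 ± 99.8 in WT libraries and 4534 ± 106 in those of the knockout on the TPM scale, and Ncl, nucleolin, at 695 ± 17.3 and 722 ± 15.7 (SD, n = 3). Npm1 did not pass as deposited (-0.03), was lower with equal totals (-0.18) and higher centred on chromosome 11 (0.37). Reads of Npm1 are uncertain because it has processed pseudogenes. Ncl was higher as deposited (0.12) but not with equal totals (-0.03). Nolc1, a chaperone of snoRNA particles (chromosome 19, 46075863 to 46085530), was at 141, 144 and 146 in WT libraries and 163, 166 and 168 in knockout libraries. Mybbp1a, a nucleolar repressor of rRNA transcription (chromosome 11, 72441355 to 72451768), was at 233, 220.2 and 225 in WT and 173, 169 and 172 in the knockout. Nolc1 was thus higher and Mybbp1a lower in every knockout library. Nolc1 rose by 0.26 (SE 0.0248, limma adjusted p 1.3e-05) and did so under all 3 settings, while Mybbp1a had a log2 fold change of -0.33 (SE 0.0281, adjusted p 5.69e-06) that became 0.06 when centred and did not pass.

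**Figure D4:**
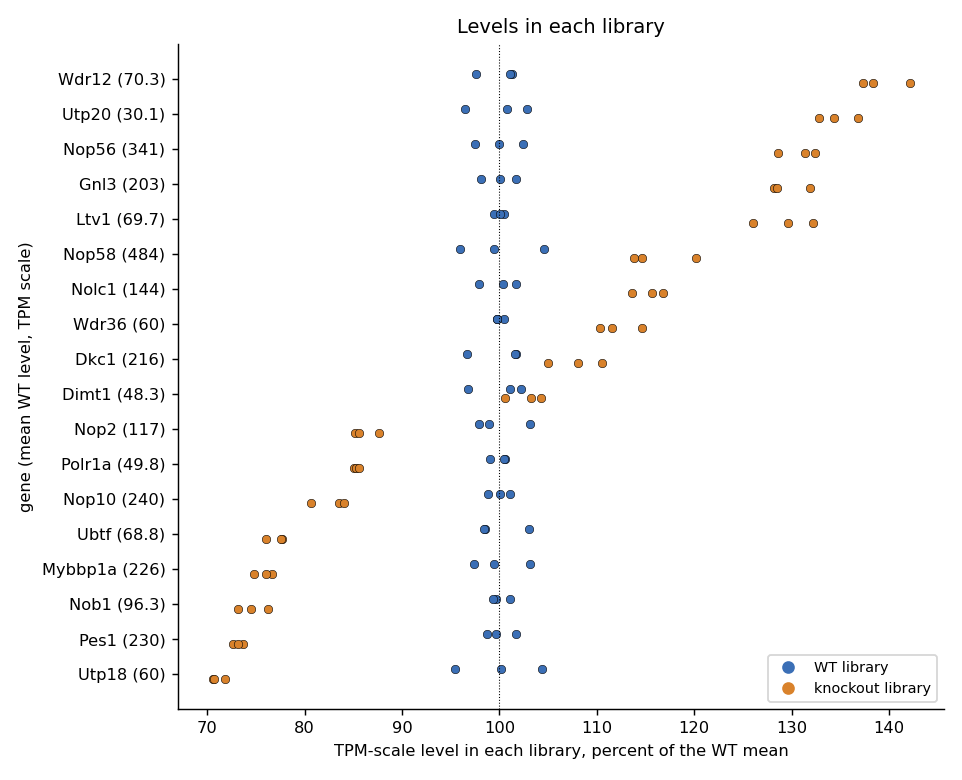
TPM-scale level in each WT (blue) and knockout (orange) library as a percent of the gene's WT mean, for the 18 genes given library by library, with the WT mean in brackets. The 3 libraries of a genotype lie close together, and the genotypes are separate for every gene but Dimt1. These genes have the smallest p of their role, so close replicates and separate genotypes are partly set by that choice. Over the full gene list the groups did not overlap for 81.2%, against 83.7% of genes with at least 1000 scaled reads.

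The small subunit processome, which binds the nascent precursor and makes the early cuts, had 7 of 13 genes higher and 2 lower as deposited, and 4 higher and 5 lower with equal totals. As deposited that is 53.8% and 15.4%, against 51.6% and 31.6% of genes with at least 1000 scaled reads. With equal totals it is 30.8% and 38.5%, against 36.5% and 44.8%. Utp20, a long repeat protein of the particle (chromosome 10, 88746607 to 88826804), had TPM-scale levels of 31.0, 29.1 and 30.4 in WT libraries and 40.5, 40.02 and 41.2 in knockout libraries. Utp18, of the UTP-B module (chromosome 11, 93859243 to 93885766), was at 57.2, 62.6 and 60.1 in WT and 42.3, 43.1 and 42.4 in the knockout. Wdr36, also of UTP-B (chromosome 18, 32837225 to 32867594), was at 60.3, 59.8 and 59.8 in WT and 66.2, 66.9 and 68.7 in the knockout. All 3 separated the genotypes, and the UTP-B pair moved in opposite directions. Log2 fold changes were 0.50 for Utp20 (SE 0.0397, limma adjusted p 3.49e-06), -0.44 for Utp18 (SE 0.0348, adjusted p 3.43e-06) and 0.22 for Wdr36 (SE 0.0243, adjusted p 4.02e-05). Only Utp20 of these passed when centred (0.39), with Utp18 at -0.05 and Wdr36 at -0.03.

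Other processome genes that rose under all 3 settings were Utp15 (0.30), Utp3 (0.27) and Imp4 (0.24), a U3 snoRNA-binding protein of the MPP10 complex. Rrp9, a protein specific to the U3 particle, fell under all 3 (-0.17, limma adjusted p 0.00271), from 181 ± 0.83 to 152 ± 6.25 on the TPM scale (SD, n = 3). Wdr75 and Wdr43, UTP-A proteins that bind first, were higher as deposited (0.22 and 0.14) but not with equal totals (0.06 and -0.02). Utp4, on chromosome 8, did not pass as deposited (-0.05) but did without WT replicate 2 (adjusted p 0.0395), and was higher when centred (0.31). Heatr1 (0.06), Imp3 (0.05) and Nop14 (0.03) did not pass as deposited, and Imp3 and Nop14 were lower with equal totals (-0.11 and -0.13).

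Late small subunit factors, which carry the pre-subunit out of the nucleus and finish its 3′ end, went both ways, with 2 of 6 higher and 2 lower as deposited and 1 higher and 4 lower with equal totals. Genes with at least 1000 scaled reads were 51.6% higher and 31.6% lower as deposited, and 36.5% and 44.8% with equal totals. Nob1, the endonuclease of the final cut (chromosome 8, 107412486 to 107425051), had TPM-scale levels of 97.3, 95.9 and 95.6 in WT libraries and 71.7, 70.4 and 73.4 in knockout libraries. Ltv1, an export and assembly factor (chromosome 10, 13178140 to 13193168), was at 70.1, 69.3 and 69.8 in WT and 87.85, 90.4 and 92.2 in the knockout. No library of one genotype overlapped the other for either gene. Ltv1 rose by 0.43 (SE 0.0269, limma adjusted p 7.5e-07) under all 3 settings. Nob1 had a log2 fold change of -0.36 (SE 0.0275, adjusted p 2.82e-06), which was 0.00325 when centred on chromosome 8. Pno1, the partner that covers the site NOB1 cuts, did not pass as deposited (-0.02) and was higher when centred (0.37).

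The Tsr1 value, for a GTPase-like factor on the 40S precursor, was -0.12 as deposited, and its call was lost in 5 of the 6 fits that left out 1 library, all but that without knockout replicate 2 (adjusted p 0.0751 to 0.156). Bysl, at 21.6 ± 0.289 and 22.1 ± 0.788 on the TPM scale (SD, n = 3), passed narrowly as deposited (0.08, limma adjusted p 0.049) and was lost in the same 5 fits (adjusted p 0.0607 to 0.159). Rrp12, an export factor, did not pass as deposited (-0.09), but did without WT replicate 2 (adjusted p 0.013) and with equal totals (-0.24).

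Large subunit assembly had 7 of 9 genes higher and 1 lower as deposited, and 4 higher and 2 lower with equal totals. All of the 9 but Pes1 lie outside chromosomes 6, 8 and 11, where 59.0% of genes with at least 1000 scaled reads were higher as deposited. With equal totals 36.5% of such genes on all chromosomes were higher and 44.8% lower. Wdr12 (chromosome 1, 60069785 to 60098645) and Pes1 (chromosome 11, 3963975 to 3980004) encode partners in the PES1-BOP1-WDR12 complex of rRNA processing. Wdr12 had TPM-scale levels of 71.2, 71.0 and 68.6 in WT libraries and 99.9, 96.55 and 97.2 in knockout libraries, and Pes1 at 227.5, 229.6 and 234 in WT and 167.5, 169.9 and 169 in the knockout. Gnl3, the GTP-binding protein nucleostemin known from stem cells (chromosome 14, 31012433 to 31019152), was at 199.6, 207 and 204 in WT and 261, 268 and 261 in the knockout. Wdr12 and Gnl3 were higher and Pes1 lower in every knockout library. Log2 fold changes were 0.55 for Wdr12 (SE 0.0288, limma adjusted p 2.15e-07), 0.45 for Gnl3 (SE 0.0275, adjusted p 6.24e-07) and -0.40 for Pes1 (SE 0.0232, adjusted p 4.55e-07). Centred on chromosome 11, Pes1 was at -0.000888.

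The assembly factors Nop16 (0.27) and Ebna1bp2 (0.26) were higher under all 3 settings. Bop1 (0.18), Rrs1 (0.17) and the GTPase Gnl2 (0.16) were higher as deposited, and none passed with equal totals (0.02, 0.02 and 0.00830). The ATPase Nvl did not pass as deposited (0.03), and was lower with equal totals (-0.13) and centred (-0.09).

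Ratios between mRNAs of one complex do not depend on library scaling, since both are read from the same library. Of 25 gene pairs in 5 complexes, formed after the values were seen, 22 had ratios that did not overlap between genotypes: 3 of 3 in box C/D, 4 of 6 in box H/ACA, 3 of 3 in PES1-BOP1-WDR12, 9 of 10 in UTP-A and 3 of 3 in RNA polymerase I. Over all pairs of genes with at least 1000 scaled reads 84.8% did not overlap, so such separation is common to well expressed genes. Wdr12 to Pes1 was the widest, at 0.313, 0.309 and 0.293 in WT libraries and 0.596, 0.568 and 0.577 in knockout libraries, a shift of 0.93 on the log2 scale. Nop56 to Fbl, on chromosomes 2 and 7, went from 0.999, 0.965 and 1.07 to 1.41, 1.58 and 1.55, and Dkc1 to Nop10 from 0.870, 0.926 and 0.905 to 1.17, 1.19 and 1.16. No test of the ratios was run. Pes1 lies on chromosome 11, whereas neither Nop56 and Fbl nor Dkc1 and Nop10 lie on chromosomes 6, 8 or 11. Dkc1 lies on chromosome X, which had the highest median of genes with at least 1000 scaled reads (0.25). When centred, Dkc1 did not pass (-0.00197), while Nop10 stayed lower (-0.30).

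**Figure D5:**
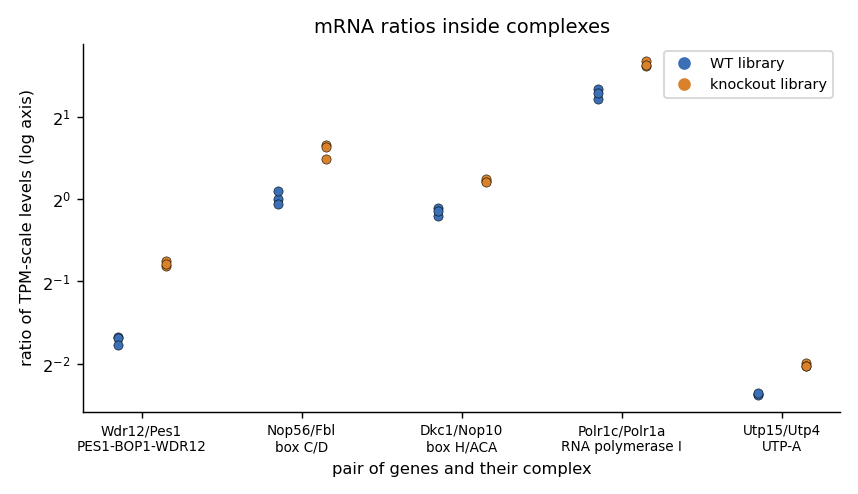
Ratio of TPM-scale levels (log axis) in each WT (blue) and knockout (orange) library for the pair with the widest shift in each of 5 complexes. The shift runs from 0.929 on the log2 scale for Wdr12/Pes1 to 0.351 for Utp15/Utp4, and the choice of the widest pair and of which gene stands on top sets its direction.

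Of 98 other genes of rRNA transcription, processing and assembly, 97 were in the table, with 55 higher and 23 lower as deposited and 29 higher and 39 lower with equal totals. The lower genes include Mettl5 itself, without which 55 of 96 (57.3%) were higher and 22 (22.9%) lower as deposited, near the 51.6% and 31.6% of all genes with at least 1000 scaled reads. With equal totals 30.2% of the 96 were higher and 39.6% lower, against 36.5% and 44.8% of such genes. As deposited, 1 of 18 on chromosomes 6, 8 and 11 was higher and 14 were lower, and elsewhere 54 of 79 were higher and 9 lower. Genes with at least 1000 scaled reads split in the same way. On these chromosomes 16.8% of them were higher and 69.9% lower, and elsewhere 59.0% and 21.8%. The smallest p-values among the higher genes were those of Nifk and Rcl1, and among the lower ones those of Mettl5 and Bms1. Nifk, a nucleolar partner of the proliferation protein Ki-67, had TPM-scale levels of 86.6, 88.5 and 88.9 in WT libraries and 128, 135 and 132 in knockout libraries (log2 fold change 0.65, limma adjusted p 1.21e-07). Bms1, a GTPase of the processome, and Rcl1, its partner, moved apart: Bms1 had a log2 fold change of -0.58 (adjusted p 7.05e-08) and Rcl1 one of 0.43 (adjusted p 7.13e-07). Both kept their call when centred, at -0.30 and 0.33.

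Further genes of rRNA methylation were measured beside Mettl5. Trmt112, the shared activating partner of METTL5 and BUD23, averaged 77.1 ± 3.35 in WT libraries and 74.7 ± 2.12 in those of the knockout on the TPM scale (SD, n = 3) and did not pass (0.02, limma adjusted p 0.635), though it was lower with equal totals (-0.13). Bud23, the small subunit guanosine methyltransferase, rose under all 3 settings (0.38 as deposited, adjusted p 7.98e-05). Its levels were 63.7, 57.8 and 64.8 in WT libraries and 79.7, 76.4 and 75.3 in knockout libraries. Zcchc4, the large subunit N6-methyladenosine methyltransferase, was higher as deposited (0.19, adjusted p 0.00342) but did not pass with equal totals (0.03). Rrp8, a large subunit adenosine methyltransferase singled out after its values were seen, had the largest rise of the other pathway genes, at 28.0, 25.6 and 28.45 in WT libraries and 42.6, 44.3 and 39.4 in knockout libraries. The change of 0.70 on the log2 scale passed (SE 0.0591, limma adjusted p 5.72e-06), as did those with equal totals (0.54) and centred (0.65).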

How the data were processed

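The tools kallisto and sleuth and the build mm10 come from the submitters' processing notes. Their versions, the annotation, strand setting and scaling method were "not given in the sources used here". Per the file headers, the authors deposited 2 signal columns per gene, scaled reads and TPM, for 6 libraries. Neither was whole numbers: 29.9% to 32.8% of scaled reads from 0.5 to 40 lay within 0.02 of whole multiples of a step of each library, which gave the depth estimate. Sums of the TPM column ran from 969838 to 978167 (WT) and from 1019930 to 1022473 (knockout), so the columns are scaled differently and a small fold change can differ in sign from the TPM levels. Members, lists and roles were chosen with earlier results of these data known.

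The model was limma 3.58.1 in R 4.3.3, with the variance trended on level, for log2(scaled reads + 1) of genes averaging at least 1 scaled read, knockout against WT. Fold changes are on that scale. Names and positions came from GENCODE M21 (GRCm38, also called mm10), which held 23829 identifiers and lacked 362. Library values were given for the 2 genes of each role with the smallest p (3 in roles of 9 or more), and other pathway genes by smallest p. Alternatives were equal totals, median-of-ratios scaling, the TPM column, chromosome centring, filters, pseudocounts, variance models, a 1.5-fold test, a replicate block and leaving out each library. Replicate pairs differed by more than counting noise (chi-square per degree of freedom 2.95 to 7.02). The fit was tested on simulated data. Of the 48 genes, 16 overlap a protein-coding gene on the opposite strand, and their reads are uncertain if strand was ignored. Python 3.11.15, pandas 2.3.3, numpy 2.4.6 and matplotlib 3.10.9 were used.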

Additional observations from a re-analysis of the deposited data

How the results depend on the processing

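The counts of called genes changed with rescaling to equal totals, chromosome centring and the fold threshold. Other scalings changed them less than equal totals did. With equal totals, 12 of the 48 genes were higher and 22 lower, the other pathway genes had 29 higher and 39 lower, and the median of the 48 was -0.0661. It was 0.0361 with the TPM column. Centring per chromosome left 5 of the 48 lower. The test beyond 1.5-fold called 0 and 0 of the 48, 0 and 1 of the other pathway genes, and 2869 and 2178 of all genes; with a minimum of 1000 scaled reads 3550 and 2170 of all genes were called. Leaving out 1 library gave 23 to 25 higher and 9 to 13 lower among the 48, 50 to 52 and 22 to 23 among other pathway genes and a median of 0.0749 to 0.103.

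Among the 48 genes and other pathway genes named by rule, log2 fold changes that changed sign with equal totals were those of Polr1b (-0.11), Rrn3 (-0.051), Gar1 (-0.0224), Dimt1 (-0.0604), Emg1 (-0.133), Nat10 (-0.147), Ncl (-0.033), Wdr43 (-0.0167), Heatr1 (-0.101), Imp3 (-0.111), Nop14 (-0.129), Bysl (-0.0717), Nvl (-0.131) and Trmt112 (-0.132). With the TPM column they were Polr1b (-0.0272), Emg1 (-0.0413), Nat10 (-0.0499), Heatr1 (-0.0253), Imp3 (-0.0202), Nop14 (-0.0676), Nvl (-0.0308) and Trmt112 (-0.0459), and with median-of-ratios scaling Nat10 (-0.0114). Centred per chromosome they were Polr1a (0.117), Polr1b (-0.0454), Ubtf (0.0705), Dkc1 (-0.00197), Nhp2 (0.294), Gar1 (-0.0456), Nop2 (0.124), Nat10 (-0.0822), Npm1 (0.368), Mybbp1a (0.0639), Utp4 (0.309), Wdr36 (-0.0309), Imp3 (-0.0185), Nop14 (-0.0583), Nob1 (0.00325), Pno1 (0.373), Tsr1 (0.277), Nvl (-0.0859) and Trmt112 (-0.0749). Leaving out 1 library, the Emg1 log2 fold change ran from -0.00592 to 0.0617, the Nat10 log2 fold change from -0.0258 to 0.0533, the Pno1 log2 fold change from -0.047 to 0.0121 and the Trmt112 log2 fold change from -0.0162 to 0.0452. The cause of these sign changes was not tested.

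The labels do not say whether replicate numbers pair the libraries. Correlations of deviations were -0.00943, 0.0383 and 0.0443 for same-numbered libraries and -0.0484 to 0.00711 for the others. Deviations were taken from the mean of each genotype, which constrains these correlations, so they cannot decide it. The fit with a replicate block called 25 of the 48 genes higher and 13 lower. Among the 48, filters, voom weights and a pseudocount of 10 changed no call. A fit without the intensity trend lost 7 calls. Depth is estimated, not given.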
